A study of Mus musculus with 2 samples.

Results

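The 10 genes described here encode parts of the ribbon synapse, the output terminal of photoreceptors: Bsn, Pclo, Ctbp2 and Rims2 of the ribbon and active zone, Cacna1f, Cacna2d4 and Cabp4 of the calcium entry site, and Syp, Slc17a7 and Stx3 of the vesicles and their fusion. They were taken by symbol from the 32285 genes of the matrices, and all 10 were found and had at least 20 CPM (a gene's UMIs scaled to a common total per class) on average over each pair of classes compared. Mouse retinas were dissociated and profiled by droplet single-cell RNA sequencing after light exposure that began on postnatal day 14 and lasted 2 weeks. One group received short-wavelength light and the other full-spectrum white light, with 1 library each. No group kept under ordinary housing light or in darkness was analysed here, and the strain, the sex and the number of mice behind each library are not given in the sources used here. With 1 library per light condition the condition and the library cannot be told apart, so no test was made. Intervals in this text are exact 95% intervals that cover counting error only, and values are given for the short-wavelength library first and the white-light library second.

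A ribbon synapse releases glutamate continuously: a plate-like ribbon, built mainly of the protein RIBEYE, tethers vesicles above a row of L-type calcium channels, so that release follows the membrane potential in a graded way. Rods and cones both make such synapses, the rod spherule with a single ribbon and the larger cone pedicle with many, and rod bipolar cells make ribbon synapses of their own onto amacrine cells. Mutations in the photoreceptor calcium channel and its binding proteins cause congenital stationary night blindness and cone dysfunction.

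The libraries held 16106 and 5707 barcodes with medians of 2434 and 2784 UMIs, and 26 barcode sequences occurred in both. Cells were classed by UMIs of marker genes, none of them one of the 10. This gave 13110 and 4796 rods, 313 and 96 cones, 94 and 28 rod bipolar cells, and 88 and 36 Müller glia, which serve as a cell type without ribbon synapses. Median depths were 2326 and 2753.5 UMIs in rods, 6397 and 6754 in cones, 6027.5 and 8701 in rod bipolar cells, and 5697.5 and 7409 in Müller glia. Barcodes that met gates of different types, or carried much rod RNA beside another type's markers, were left out: 250 (1.78%) and 292 (5.37%). Rod-marker UMIs were found in every class. The 9 rod markers stood at 14.1% and 12.4% of their rod level in Müller glia, at 14.6% and 13.0% in rod bipolar cells and at 25.0% and 21.8% in cones. The 8 cone markers summed to 42226 and 42652 CPM in cones against 241 and 204 in rods. These markers set the cone gate, so the difference follows from the gating and is no separate check of the classes.

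Cacna1f and Syp lie 3.275 kb apart on the X chromosome, so RNA of the sex chromosomes was looked at. Xist had 4 and 0 UMIs over all rods, while the Y-linked Eif2s3y stood at 206 and 200 CPM and Uty at 123 and 123 CPM in rods. Both libraries thus held RNA of male cells, at like levels.

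Of the 10 genes, 7 had a promoter window in the RefSeq table (GRCm38.p6, 250 bases before to 50 after the start), with 8 windows in all. Rims2, Cacna2d4 and Cabp4 are not in that table. The windows were searched on both strands for TAATCC, the core motif of the photoreceptor homeodomain factor CRX, and for TGCTGA, a half-site of the rod factor NRL. The CRX core was in 3 of 8 windows, against 7.06% of 32851 windows of the same length genome-wide. The 3 windows are shown because they belong to the ribbon's own start of transcription, to the syntaxin of the terminal and to the gene with the highest cone to rod ratio of the 10. The capitals mark the motif, read here as its reverse complement GGATTA where it lies on the other strand. They lie at chr7:133015198-133015497, chr19:11819354-11819653 (both minus strand) and chrX:7638330-7638629 (plus strand), and the motif begins at -121, 30 and -246 from the annotated start.
Ctbp2: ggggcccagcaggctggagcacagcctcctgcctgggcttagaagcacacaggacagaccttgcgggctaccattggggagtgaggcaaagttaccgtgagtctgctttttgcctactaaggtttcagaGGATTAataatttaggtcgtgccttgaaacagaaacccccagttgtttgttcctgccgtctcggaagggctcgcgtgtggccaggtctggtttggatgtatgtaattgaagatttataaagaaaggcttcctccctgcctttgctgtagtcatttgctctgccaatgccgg
Stx3: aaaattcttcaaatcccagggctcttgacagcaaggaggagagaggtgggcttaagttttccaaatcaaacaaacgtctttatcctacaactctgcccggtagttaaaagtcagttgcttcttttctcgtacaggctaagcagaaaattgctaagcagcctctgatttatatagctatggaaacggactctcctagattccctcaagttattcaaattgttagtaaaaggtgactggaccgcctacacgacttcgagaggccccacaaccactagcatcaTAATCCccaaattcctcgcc
Syp: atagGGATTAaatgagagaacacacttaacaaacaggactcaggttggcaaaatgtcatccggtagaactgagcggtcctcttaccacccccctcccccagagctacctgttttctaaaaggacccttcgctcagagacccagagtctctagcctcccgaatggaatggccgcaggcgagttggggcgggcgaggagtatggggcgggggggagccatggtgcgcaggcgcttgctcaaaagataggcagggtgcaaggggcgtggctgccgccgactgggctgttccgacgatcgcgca
The NRL half-site was in 0 of 8 windows, against 19.5% of all windows. The letters CAGCTG, an E-box, were also searched for and found in the Bsn window alone of these, against 16.3% of all windows. None of these differences was tested, for the CRX core, the NRL half-site or the E-box. A match is a description of these letters, and its absence says only that they are not in the window.

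Of the scaffold genes of the ribbon and active zone, Rims2 was somewhat lower in cones than in rods, Ctbp2 was somewhat higher, and Pclo was close to the rod level. Bsn was also lower in cones, with an interval that excludes 1 in the short-wavelength library only. In rod bipolar cells, Pclo and Ctbp2 were at rod level and Rims2 was lower. Bsn encodes Bassoon, the large scaffold protein that anchors the ribbon to the plasma membrane (chr9:108096022-108190384 in mm10, minus strand). It stood at 52.3 (50–54.7) and 49.4 (46.1–53.0) CPM in rods, 40.1 (31.9–49.9) and 35.1 (22.2–52.6) in cones, and 68.8 (49.4–93.4) and 31.0 (12.5–63.9) in rod bipolar cells. In the short-wavelength library cones were below rods, with a ratio of 0.77 (0.61–0.96), and below rod bipolar cells, with a ratio of 0.58 (0.40–0.87). In the white-light library the 3 intervals overlap, and the rod bipolar value rests on 7 UMIs. With cells thinned to 1000 UMIs the cone to rod log2 ratio of Bsn in that library was 0.09, so the lower cone level was not kept. Müller glia held 11.7 and 24.9 CPM.

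Pclo encodes Piccolo, the relative of Bassoon whose short ribbon form, Piccolino, occurs at these synapses (chr5:14514918-14863459, plus strand). Its level was 664 (655–672) and 674 (662–687) CPM in rods, 642 (608–678) and 573 (517–634) in cones, and 676 (612–746) and 576 (481–684) in rod bipolar cells. The 3 classes could not be ordered: in the short-wavelength library all 3 intervals overlap, and in the white-light library cones were below rods, with a ratio of 0.85 (0.77–0.94). That lower level was not kept with cells thinned to 1000 UMIs, where the log2 ratio was 0.05. Müller glia held 239 and 260.1 CPM, 36.1% and 38.6% of the rod level, which is more than the rod markers kept there.

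Ctbp2 encodes RIBEYE, the main ribbon protein, and from another promoter the transcriptional corepressor CtBP2 (chr7:132987563-133124354, minus strand). The annotated transcript of 988 codons begins at 133015248, within the window printed above, and the corepressor transcripts of 420 and 445 codons begin upstream of it. The 3 transcripts end within 43 bases of each other, so counts from the 3′ end cannot separate them, and Fgfr2 overlaps the gene on the same strand. Ctbp2 counts stood at 121 (117–124) and 119.9 (115–125) CPM in rods, 157 (140.3–175) and 152 (124–185) in cones, and 112 (87.2–143) and 115 (75.3–169) in rod bipolar cells. Cones were 1.30-fold (1.16–1.46) and 1.27-fold (1.03–1.55) above rods, while rods and rod bipolar cells overlapped. With cells thinned to 1000 UMIs the cone to rod log2 ratio in the white-light library was -0.13, so the higher cone level was not kept there at that depth. Among the 10 genes Ctbp2 kept the highest share of its rod level in Müller glia, 53.2% and 56.5%, where its counts were 64.2 and 67.7 CPM.

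Rims2 encodes RIM2, the active zone protein that positions vesicles and channels and that photoreceptors use as their main RIM (chr15:39198261-39684372, plus strand). Rods held 2165 (2150.4–2180.3) and 2114 (2092–2136) CPM, cones 1635 (1579–1691) and 1532 (1438–1629), and rod bipolar cells 1104 (1022–1192) and 1037 (908–1179). No interval overlaps that of another class in either library. The order rod, cone, rod bipolar was the same in both, with cones at 0.75 and 0.72 and rod bipolar cells at 0.51 (0.47–0.55) and 0.49 (0.43–0.56) of the rod level.

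**Figure D1:**
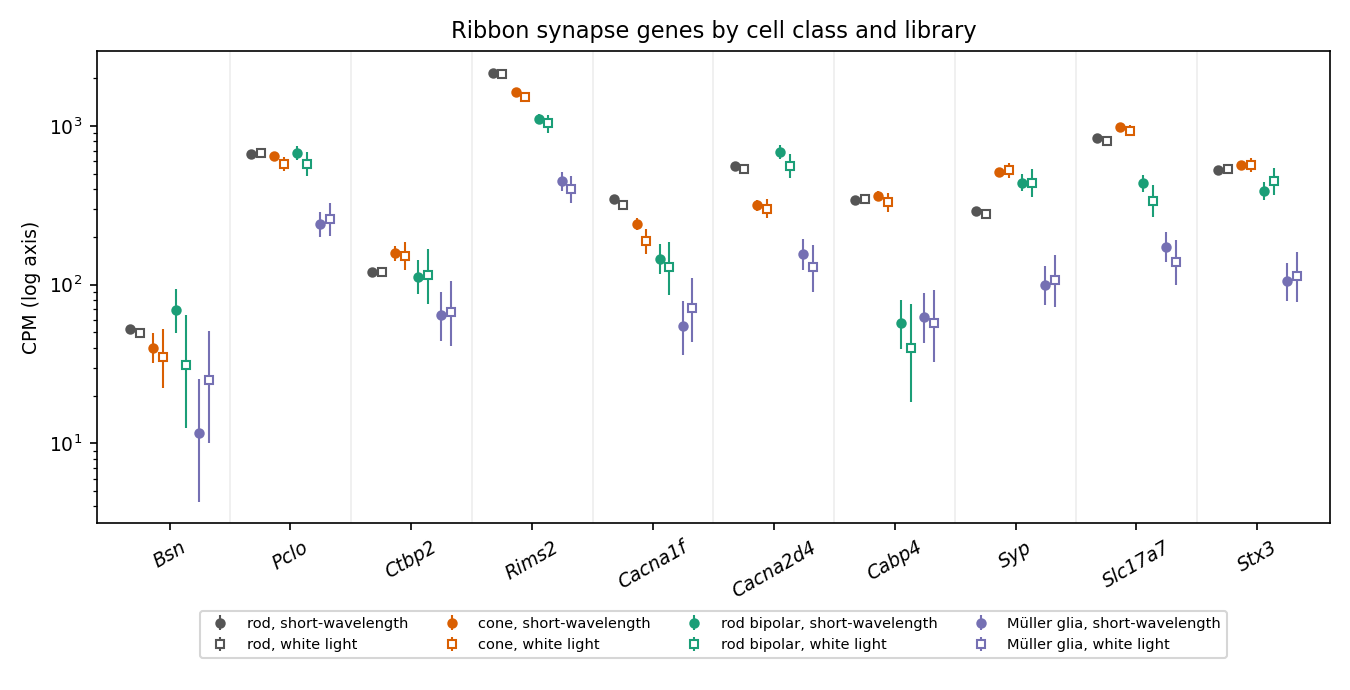
Level of each of the 10 genes (CPM, log axis) in rods, cones, rod bipolar cells and Müller glia, with exact 95% Poisson intervals and 1 point per library. Cabp4 falls to the Müller glia level in rod bipolar cells, while Syp is lowest in rods among the 3 ribbon-bearing classes.

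The genes of the calcium entry site each had a pattern of its own. Cabp4 was at the same level in rods and cones and near the Müller glia level in rod bipolar cells. Cacna1f declined from rods to cones to rod bipolar cells, and Cacna2d4 was lowest in cones. Cacna1f encodes the pore-forming subunit Cav1.4 of the photoreceptor calcium channel (chrX:7607083-7635196, plus strand). It stood at 346 (339.8–352) and 316 (308–325) CPM in rods, 240.4 (219–263) and 187 (156–224) in cones, and 146 (117–180.1) and 129 (86.1–185) in rod bipolar cells. Rods were above cones, and cones above rod bipolar cells, in both libraries. The interval of the second step includes 1 in the white-light library, where the cone level was 1.46-fold (0.97–2.27) that of rod bipolar cells, against 1.65-fold (1.31–2.09) in the other. With cells thinned to 1000 UMIs the short-wavelength ratio turned to -0.15 on the log2 scale, and the white-light ratio kept its sign. The rod bipolar level was 0.42 (0.34–0.52) and 0.41 (0.27–0.58) of that in rods. Rod RNA at the share of the rod markers would amount to 50.5 and 41.2 CPM there, less than was counted.

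Cacna2d4 encodes the extracellular α2δ4 subunit, which brings the channel to the terminal (chr6:119236526-119352407, plus strand). Rods held 561 (554–569) and 532 (521–544) CPM, and rod bipolar cells 685 (620.0–755) and 563 (469–669.6). Cones held 317 (293–342) and 302 (261–347) CPM, the lowest level of the 3 classes in both libraries and below both others without overlap. The cone level was 0.56 (0.52–0.61) and 0.57 (0.49–0.65) of that in rods and 0.46 (0.41–0.53) and 0.54 (0.43–0.68) of that in rod bipolar cells. In the short-wavelength library rod bipolar cells were 1.22-fold (1.10–1.35) above rods, and in the white-light library the interval, 0.88 to 1.26, includes no difference.

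Cabp4 encodes the calcium-binding protein that shifts the activation of Cav1.4 to the voltages of photoreceptors (chr19:4135423-4144033, minus strand). Its level was 342 (336–348) and 347 (338–356) CPM in rods and 359.9 (334–387) and 331 (288–378) in cones. The cone to rod ratio, 1.05 (0.98–1.13) and 0.95 (0.83–1.09), lay on either side of 1, with both intervals including it. Rod bipolar cells held 57.1 (39.5–79.7) and 39.9 (18.2–75.7) CPM. Those values lie at what RNA of rods at the rod-marker share would give, 49.9 and 45.2 CPM, and beside the 62.3 and 57.0 CPM of Müller glia. With every cell thinned to 1000 UMIs, a Cabp4 UMI was seen in 29.2% and 29.3% of rods, in 30.6% and 26.6% of cones, in 1.11% and 3.57% of rod bipolar cells, and in 4.82% and 5.71% of Müller glia. Without thinning the shares were 57.6% and 61.5%, 76.7% and 75.0%, 24.5% and 32.1%, and 25.0% and 27.8% at the depths given above. Whether the Cabp4 counts of rod bipolar cells come from RNA of rods or from low expression was not tested.

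The vesicle and fusion genes were at or above the rod level in cones. Syp encodes synaptophysin, a membrane protein of synaptic vesicles (chrX:7638471-7653256, plus strand). It was higher in cones than in rods, at 514 (483–546) and 527 (473–586) CPM in cones against 291 (286–297) and 278 (269.6–286) in rods. The ratio was 1.76 (1.65–1.88) and 1.90 (1.70–2.12), just under 2-fold. Rod bipolar cells held 438 (387–495) and 439 (357–534) CPM, which is 1.5-fold (1.32–1.70) and 1.58-fold (1.28–1.93) the rod level. Cones exceeded rod bipolar cells by a ratio of 1.17 (1.02–1.35) in the first library, and in the second by 1.2, with an interval of 0.96 to 1.52. Of these 3 classes, rods thus had the least Syp per UMI in both libraries.

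Slc17a7 encodes VGLUT1, which loads vesicles with glutamate (chr7:45163949-45176142, plus strand). Cones held 987 (944–1031) and 931 (859–1008) CPM, rods 844 (835–854) and 799 (785–813), and rod bipolar cells 435 (383–491) and 337 (265–422). The order was the same in both libraries and no intervals overlapped. Cones were 1.17-fold (1.12–1.22) and 1.17-fold (1.07–1.26) above rods and 2.27-fold (1.99–2.59) and 2.77-fold (2.18–3.56) above rod bipolar cells. RNA of rods at the rod-marker share would amount to 123 and 104 CPM of the rod bipolar level.

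Stx3 encodes syntaxin 3, the target-membrane SNARE that ribbon synapses use in place of syntaxin 1 (chr19:11775118-11819403, minus strand). Rods held 528 (521–536) and 534 (523–545) CPM and cones 565 (533–599) and 572 (515–632), a ratio of 1.07 in both libraries, with intervals of 1.01 to 1.14 and 0.96 to 1.19. Rod bipolar cells held 388 (339–441) and 448 (365–544) CPM. They were below rods by a ratio of 0.73 (0.64–0.84) in the first library, and in the second the interval, 0.68 to 1.02, reaches 1.

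**Figure D2:**
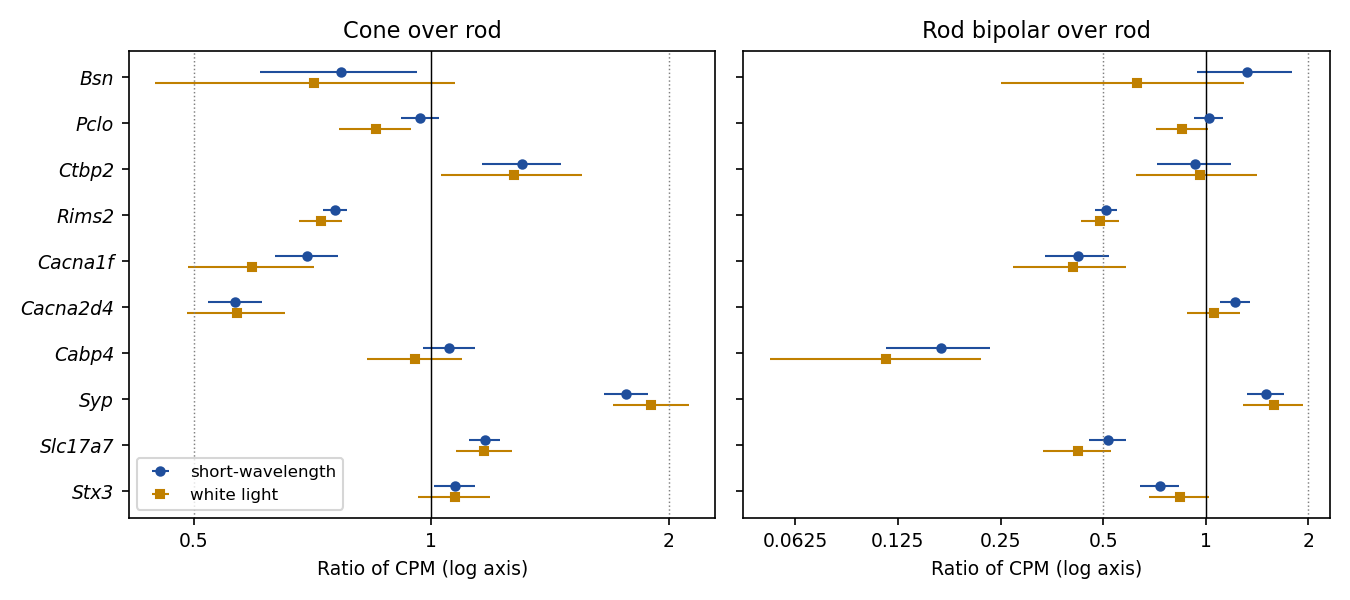
Ratio of CPM in cones over rods (left) and in rod bipolar cells over rods (right) for each gene, on a log axis, with exact 95% intervals. Points are the short-wavelength library and squares the white-light library, and dotted lines mark 2-fold. Every cone ratio lies within 2-fold. In rod bipolar cells Cabp4 and Cacna1f lie beyond it in both libraries, and Slc17a7 and Rims2 in the white-light library.

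The 10 were then set beside all genes. Between cones and rods, 0 of the 10 were past 2-fold in the same direction in both libraries, against 15.3% of 7459 genes (9.09% higher and 6.17% lower). Their median log2 ratio was 0.01 and -0.15, against -0.13 and -0.12 for all genes. Between rod bipolar cells and rods, 2 of 10 were past 2-fold, Cacna1f and Cabp4, both lower, against 14.9% of 7583 genes lower and 13.9% higher (28.8% in all). The median of the 10 was -0.27 and -0.42, against -0.16 and -0.14 for all genes. Between cones and rod bipolar cells, 2 of 10 were past it, Cabp4 and Slc17a7, both higher in cones, against 10.5% of 7495 genes higher and 10.6% lower (21.1% in all). These shares are close to those of all genes, so the counts alone do not set the 10 apart. Scaling by median-of-ratios moved the all-gene level by -0.15 and -0.13 on the log2 scale for cones over rods and by -0.17 and -0.15 for rod bipolar cells over rods. Under it the sign changed for the cone to rod ratios of Pclo in the short-wavelength library and of Cabp4 in the white-light library, and the rod bipolar to rod ratio of Ctbp2 in both, all close to 1 in the first place.

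When RNA of rods was taken off at the share of the rod markers, a step chosen after seeing the data, Syp was past 2-fold higher in cones than in rods (log2 ratios of 1.002 and 1.09) and Cacna2d4 past 2-fold lower. In rod bipolar cells Rims2 and Slc17a7 then joined Cacna1f and Cabp4 past 2-fold below rods. The rod markers themselves differed in the share found in cones, from 15.3% to 69.2% and from 12.1% to 69.3%, so the amount to take off is known only roughly for that class.

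With UMIs summed per class, the 10 genes together made up 5915 and 5764 CPM in rods, 5457 and 5142 in cones, 4110 and 3713 in rod bipolar cells, and 1413 and 1368 in Müller glia. In cells thinned to 1000 UMIs a rod held UMIs of 3.67 and 3.57 of the 10 on average, a cone 3.65 and 3.53, a rod bipolar cell 3.09 and 2.57, and a Müller glial cell 1 and 1.14. At that common depth rods and cones were thus alike in the number of these genes seen per cell.

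Within cones the genes were also set out by opsin balance, since mouse cones range from mostly S opsin (Opn1sw) to mostly M opsin (Opn1mw). Cones with at least 90% of opsin UMIs from Opn1sw numbered 56 and 21, against 254 and 72 others. In the short-wavelength library 9 of the 10 ratios had intervals that include 1, and Rims2 was 1.14-fold (1.04–1.24) higher in the S-dominant cones. In the white-light library the exception was Cacna1f at 0.48 (0.21–0.94), from 9 and 108 UMIs. Its ratio in the other library was 0.93 (0.71–1.195), so neither exception was found in both libraries.

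Other genes of the terminal were taken from lists by role. Of the 18 ribbon and active zone partners, 11 could be compared between cones and rods and 0 were past 2-fold. Between rod bipolar cells and rods, 5 of 15 were higher and 5 lower. Lin7a, a scaffold protein of the MALS family, stood at 942 and 864 CPM in rod bipolar cells against 5.85 and 5.17 in rods. Rims1, the paralog of Rims2, was at 75.5 and 48.7 CPM there against 1.63 and 1.58 in rods. The ELKS gene Erc1 was higher in rod bipolar cells and its paralog Erc2 lower, so both pairs of paralogs had opposite directions in these classes, with Rims2 itself at 0.51 and 0.49. Tulp1, a tubby-family protein needed at photoreceptor terminals, stood at 1848 and 1766 CPM in rods, 1831 and 1716 in cones, and 287 and 204 in rod bipolar cells, a pattern like that of Cabp4.

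Of the 19 calcium partners, 5 of the 9 compared were past 2-fold higher in cones than in rods and 1, the channel subunit Cacnb2, lower. Kcnma1, the large-conductance calcium-activated potassium channel, was at 344 and 387 CPM in cones against 16.1 and 17.5 in rods. Cacna2d1, another α2δ subunit, was at 36.7 and 42.7 CPM in cones against 2.32 and 2.49 in rods, the reverse of the direction of Cacna2d4. In rod bipolar cells 10 of 12 were higher than in rods and 1 lower. Among these, the α2δ gene Cacna2d3 stood at 1027 and 1121 CPM against 6.17 and 6.14 in rods, and Cabp5, a relative of Cabp4, at 646 and 576 against 4.89 and 3.95. Cacna1d, which encodes the channel Cav1.3, was at 359 and 328 CPM in rod bipolar cells against 9.91 and 22.9 in cones. Rod bipolar cells thus held Cabp5 beside Cabp4 near the Müller glia level, and Cacna1d beside a lower level of Cacna1f than rods.

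Of the 29 vesicle cycle partners, 3 of the 17 compared were past 2-fold higher in cones than in rods and 0 lower. The complexins, clamps of vesicle fusion, showed the contrast best. Cplx3 stood at 26.4 and 28.8 CPM in rods, 595 and 567 in cones, and 1118 and 1139 in rod bipolar cells. Cplx4 ran the other way, at 1403 and 1312 CPM in rods, 826 and 692 in cones, and 227 and 160 in rod bipolar cells. Cones thus held both. The other 2 higher in cones were Rab3a, a vesicle GTPase (277 and 273 CPM against 75.2 and 75.5), and Sv2a, a vesicle glycoprotein (124 and 105 against 28.9 and 32.4). Between rod bipolar cells and rods, 8 of 20 were higher and 3 lower.

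Of the 17 trans-synaptic and uptake partners, 3 of the 12 compared were past 2-fold higher in cones than in rods and 2 lower. The glutamate transporter gene Slc1a2 was at 1203 and 1210 CPM in cones against 402 and 407 in rods, and Lrit2 was at 135 and 122 against 319 and 293. Egflam, which encodes pikachurin, the matrix protein between photoreceptor and bipolar tip, stood at 591 and 588 CPM in rods, 405 and 372 in cones, and 67.1 and 62.0 in rod bipolar cells. Between rod bipolar cells and rods, 3 of 13 were higher and 4 lower. The 6 cone bipolar markers summed to 114 and 139 CPM in cones, where 3 and 4 of the 6 had a UMI, and to 11.4 and 16.4 CPM in rods, and their part in the values of Nrxn3 and Cabp5, which rod bipolar cells hold in quantity, was not tested. Leaving out 18 and 7 cones with under 2% cone-marker UMIs, a limit chosen after seeing the data, brought Nrxn3 in cones from 733 and 1402 CPM to 442 and 338, and Cabp5 from 69.9 and 130 to 49.3 and 58.0. Both remained above their rod levels of 75.7 and 65.8 and of 4.89 and 3.95 CPM.

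Under the 2 light conditions the rods of both libraries held the 10 genes at nearly the same level. In rods 0 of 10 were past 1.2-fold, against 3.7% of 7253 genes (2.27% higher and 1.42% lower under short-wavelength light). The ratio of short-wavelength over white light furthest from 1 was that of Cacna1f, 1.09 (1.06–1.13), from 346 and 316 CPM. Slc17a7 at 1.06 (1.04–1.08), Cacna2d4 at 1.05 (1.03–1.08), Syp at 1.05 (1.01–1.09) and Rims2 at 1.02 (1.01–1.04) also had intervals above 1. Bsn, at 1.06 (0.97–1.15), and Cabp4, Stx3, Ctbp2 and Pclo had intervals that include 1. The median log2 ratio of the 10 was 0.05, against 0.01 over all genes, and 7 of the 10 were above 0, against 53.1% of all genes. The share of all genes with intervals above 1 was not counted. Among the partner genes in rods, Lrrc4 alone was past 1.2-fold, lower at 18.4 against 22.4 CPM, and Mpp4, a membrane-associated guanylate kinase gene of photoreceptor terminals, stood at 806 against 718 CPM, a ratio of 1.12 (1.10–1.15).

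In cones Cacna1f was the 1 gene of the 10 past 1.2-fold, against 20.3% of 7286 genes higher and 17.8% lower (38.1% in all). Its level was 240.4 CPM under short-wavelength and 187 under white light, a ratio of 1.28 (1.05–1.58). The size of this ratio varied with the choice of cells: on the log2 scale it was 0.35, and over the other settings it ran from 0.12, with a stricter limit on rod-marker UMIs, to 0.54, with cells thinned to 1000 UMIs. With doublets kept it was 0.23, and at 0.23 and 0.12 the gene was no longer past 1.2-fold. Leaving out the cones with under 2% cone-marker UMIs gave a ratio of 1.32 (1.07–1.63). The other 9 had ratios from 0.97 (Syp) to 1.15 (Bsn), all with intervals that include 1. Nrxn3, at 733 against 1402 CPM, changed direction to a ratio of 1.31 (1.12–1.53) when those cones were left out.

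In rod bipolar cells, with 94 and 28 cells, 4 of 10 were past 1.2-fold, all higher under short-wavelength light, against 28.4% of 7224 genes higher and 28.7% lower (57% in all). They were Bsn at 2.22 (0.99–5.86), Cabp4 at 1.43 (0.67–3.39), Slc17a7 at 1.29 (0.996–1.69) and Cacna2d4 at 1.22 (0.995–1.5). The Bsn ratio rests on 41 and 7 UMIs, and the Cabp4 ratio on 34 and 9. With cells thinned to 1000 UMIs the log2 ratios of Cacna2d4 and Cabp4 turned to -0.12 and -1.34. The intervals of all 4 ratios include 1.

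**Figure D3:**
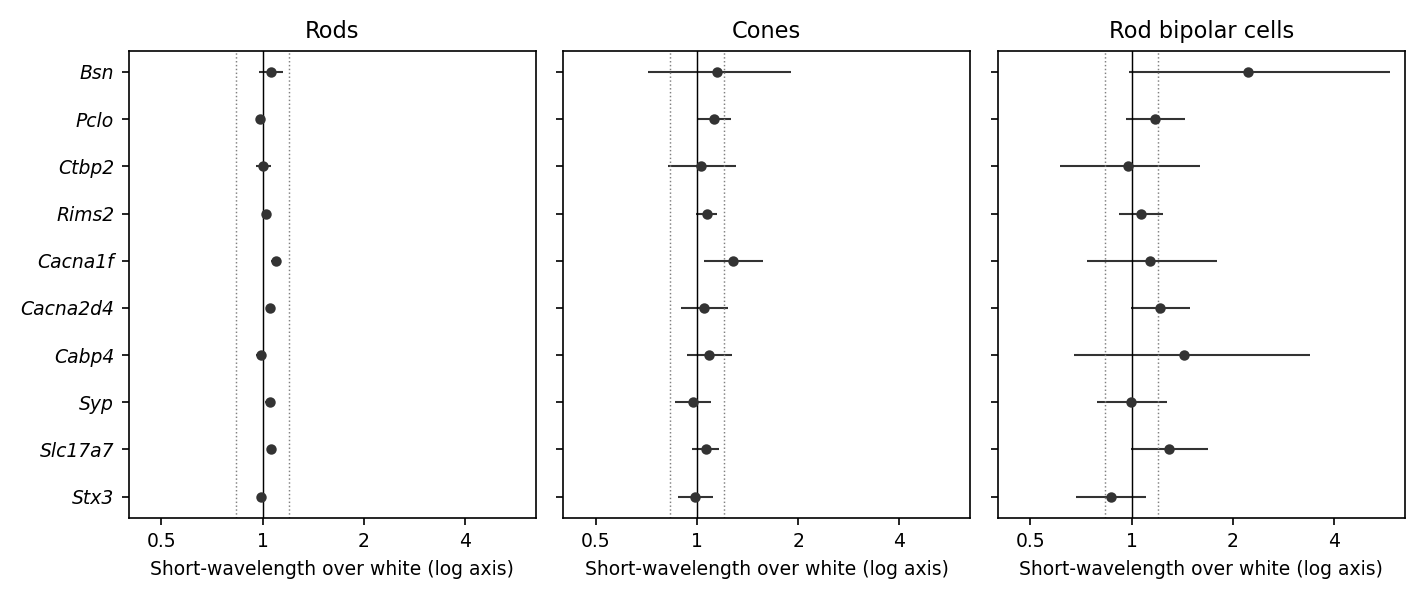
Ratio of CPM under short-wavelength over white light for each gene in rods, cones and rod bipolar cells (log axis, exact 95% intervals from 1 library per condition, dotted lines at 1.2-fold). The rod ratios lie between 0.98 and 1.09, and the intervals widen with the smaller numbers of cones and rod bipolar cells.

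The libraries differed in the share of Malat1, a nuclear long noncoding RNA whose share rises where a barcode holds more nuclear and less cytoplasmic RNA. It took 5.61% and 5.09% of UMIs in rods. Rods were therefore divided into 5 parts by this share, at limits common to both libraries, with 2220 and 1361 rods in the lowest part (2.97% and 3.07% Malat1) and 2994 and 588 in the highest (7.48% and 7.38%). Between the highest and the lowest part 5 of 10 genes were past 1.2-fold higher in both libraries, against 31% of 7188 genes, and 2 of 10 lower, against 19.3% (50.3% in all). The parts are ranges of a measure and not cell types.

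The higher ones were Cacna1f, at 374 and 356 CPM in the highest part against 251 and 243 in the lowest, and Rims2, Bsn, Cacna2d4 and Pclo. Their ratios ran from 1.25 (Pclo) to 1.49 (Cacna1f) in the first library and from 1.29 (Cacna2d4) to 1.48 (Bsn) in the second. Stx3 was lower, at 473 and 492 CPM against 711 and 683, and so was Slc17a7, at 832 and 749 against 1011 and 953. Syp also lay on this side with ratios of 0.83 and 0.77. Cabp4 (1.05 and 0.98) and Ctbp2 (1.004 and 0.98) hardly varied. The 5 higher genes span 28.1 to 486 kb of genome, Slc17a7 and Stx3 12.2 and 44.3 kb, Syp and Cabp4 14.8 and 8.61 kb, and Ctbp2, which hardly varied, 137 kb. Opposite-strand genes overlap Bsn, Pclo, Cacna2d4, Cabp4 and Syp. Whether the counting used strand, and whether intron reads were counted, is not given in the sources used here.

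**Figure D4:**
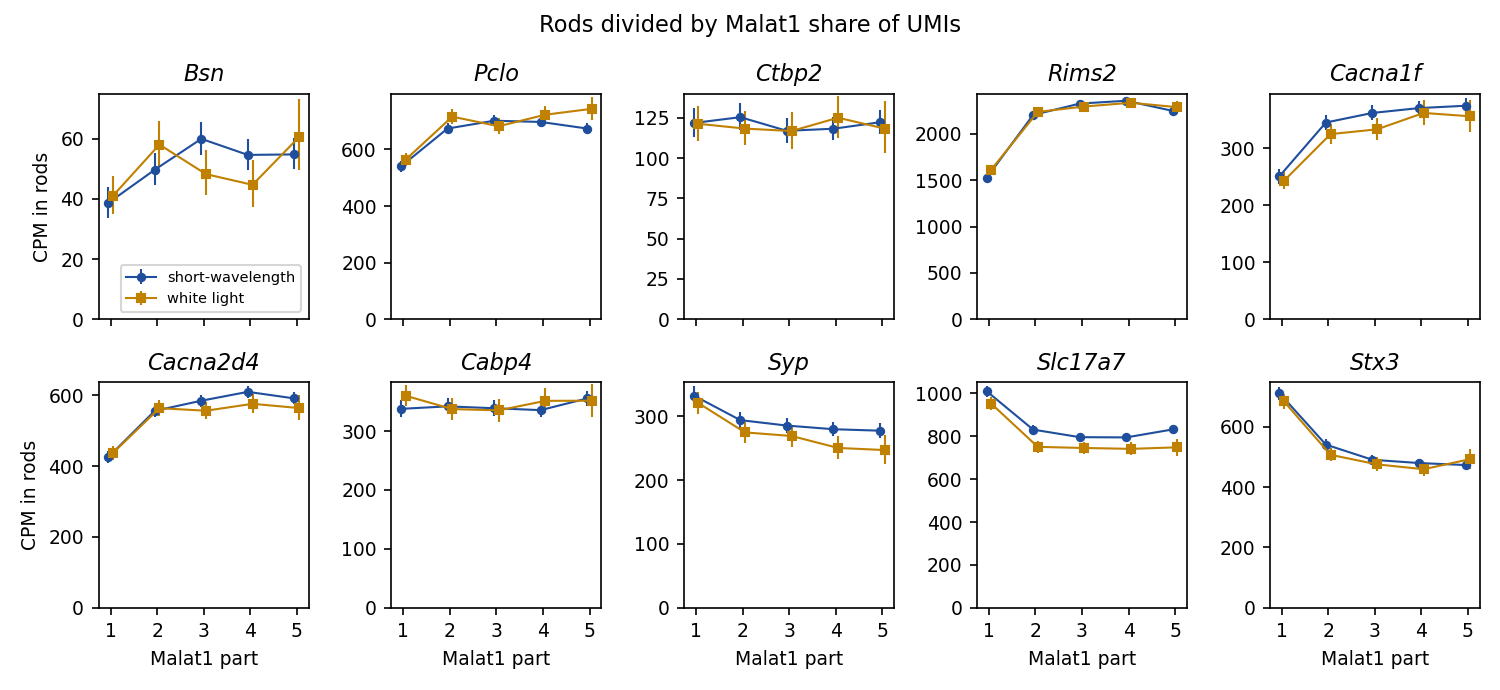
Level of each gene (CPM) in rods by Malat1 share of UMIs, from the lowest part (1) to the highest (5), with 1 line per library and exact 95% intervals. Rims2, Cacna1f and Cacna2d4 step up after the lowest part, Stx3 and Slc17a7 step down, and Cabp4 and Ctbp2 stay level.

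For Rims2 most of the step lay between the lowest part and the next: it went from 1523 and 1612 CPM to 2202 and 2235, and ended at 2246 and 2286 in the highest part. Within parts of like Malat1 share, the light ratio of Cacna1f in rods was between 1.02 and 1.09, that of Slc17a7 between 1.06 and 1.11 and that of Syp between 1.04 and 1.12, above 1 in each of the 5 parts. For Cacna1f 4 of these 5 intervals include 1. Cacna2d4 was at 0.97 and 0.99 in the lowest part and the next and above 1 in the other 3, and Rims2 was below 1 in 3 of the 5 parts, at 0.945 in the lowest. The part of Malat1 in the cone and rod bipolar results was not tested.

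The genes whose levels ran most like those of the 10 were sought among 8070 genes by Pearson correlation of log2(CPM + 5) over 8 points, 4 classes (the 3 above and Müller glia) in each of the 2 libraries. These points share their libraries and the rod-marker RNA found in all classes, so the values are descriptions. Cabp4 ran most closely with Tulp1 (r = 0.998), the photoreceptor terminal gene above. Cacna2d4 ran with Otx2 (0.992), a homeobox gene of photoreceptors and bipolar cells, and with Unc13b (0.987), a vesicle priming gene. Syp ran with Gapdh (0.996), Lsm4 (0.994) and Chchd10 (0.993), and Slc17a7 with Ntng2 (0.993), Ccnq (0.992) and Pkm (0.992). The closest matches of Pclo, Rims2 and Cacna1f were Nrm (0.987), Snhg15 (0.993) and Cnot6 (0.994). Ctbp2 ran with Got1 (0.991) and Aldoa (0.990), and Stx3 with Ntm (0.994) and Got2 (0.991). Bsn, with the fewest UMIs of the 10, had the lowest best match, Sin3a at 0.963.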

How the data were processed

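UMI counts per gene and barcode are the deposited values, produced by Cell Ranger (version 9.0.0, per the file headers). The submitters' processing notes give mm10 as the build and also name Seurat and edgeR without a role. The labels give the 10x 3′ chemistry as v3.1 or v4 and do not say which. A barcode needed 300 detected genes and no more than 20% of UMIs from mitochondria, which 16095 and 5695 met, and the highest Scrublet scores (scanpy 1.11.5) were removed at 0.8% per 1000 barcodes: 2072 (12.9%) and 259 (4.55%).

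Classes were gated by summed marker UMIs: at least 20 over 4 markers for rods, 5 over 3 for cones, 8 over 4 with Prkca for rod bipolar cells and 10 over 4 for Müller glia. A non-rod barcode whose rod-marker share reached 0.5 of the rod median was left out as mixed. UMIs were summed per class and library and scaled to CPM, with exact Poisson intervals. CPM ratios carry the exact conditional binomial interval, shares the Clopper-Pearson interval, and log2 ratios add 5 CPM. Genes with a mean CPM of at least 20 were compared and called past 2-fold (classes, in both libraries) or 1.2-fold (light). All 10 genes are named. Of each partner list, up to 4 called genes with the largest change were named (2 for light). Erc2 and Cacnb2, outside that rule, were chosen after their values were seen. One partner gene that the rule named is not reported here. Steps were tested on simulated data. Alternatives covered doublets, gates, the mixed limit, thinning to 1000 UMIs, the CPM denominator, averaging, median-of-ratios scaling, the CPM minimum, cells with at least 1500 UMIs and Malat1 parts. The 10 genes and the lists were chosen with earlier results of these data known. GENCODE (mm10) gave the positions, and RefSeq the promoter windows.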

Additional observations from a re-analysis of the deposited data

How the results depend on the processing

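Of 870 single-gene values under other settings, 775 moved by less than their interval, 93 moved by more, and 2 that were past the fold changed sign. Of 90 single-gene values, 61 kept their sign under all settings run. Those 2 were in rod bipolar cells thinned to 1000 UMIs, where the log2 light ratio of Cacna2d4 became -0.12 and that of Cabp4 -1.34. Among values within the fold, thinning also turned the white-light log2 ratio of Ctbp2 from 0.39 to -0.72 for cones over rod bipolar cells and from 0.33 to -0.13 for cones over rods. Counts of the 10 genes past the fold changed as follows, and the cause was not tested. With rod RNA taken off (chosen after seeing the data), cones against rods gave 1 higher and 1 lower, from 0 and 0, rod bipolar cells against rods gave 4 lower, from 2, and cones against rod bipolar cells gave 1 lower, from 0. A limit for mixed barcodes at 0.25 of the rod median also gave 4 lower in rod bipolar cells than in rods, and thinning gave 1. Thinning, and cones with at least 2% cone-marker UMIs (chosen after seeing the data), each gave 1 lower in cones than in rod bipolar cells. Under light in cones, 1 higher became 0 with doublets kept, 2 with the stricter mixed limit, 4 with thinning and 2 with a mean over cells, and thinning gave 2 lower. Under light in rod bipolar cells, 0 lower became 2 with the stricter mixed limit and 3 with thinning. No count of the 10 changed in rods under light. Scrublet's own threshold marked 1 barcode in each library, so doublet removal rests on a preset rate. No paired analysis was possible because the labels carry no replicate numbers that pair samples and each light condition has 1 library. The white-light library held 28 rod bipolar cells and 96 cones, which limits the precision of their light ratios.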
